A study of Mus musculus with 7 samples.

Results

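The genes described here encode the enzymes that make, break down and read the second messengers cAMP and cGMP. They were chosen from the authors' deposited table by a rule on gene names. It took the phosphodiesterases named Pde with a number and an optional letter up to d (Pde10a left out), the adenylyl cyclases Adcy and the subunits of protein kinase A. It also took the subunits of soluble guanylyl cyclase, both protein kinases G, and the exchange factors Rapgef2, Rapgef3 and Rapgef4. The rule and the lists used below were set with earlier results of these data known, so their shares beside those of all genes are descriptive. The rule found 47 genes among the 17732 listed, each with a single gene ID, and 43 of them had an adjusted p-value. The other 4, Gucy1b2, Pde6a, Pde6b and Pde6c, had mean counts between 2.61 and 8.05, and the authors' deposited table gives adjusted p-values down to a mean count of 34.9.

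The tissue, medial prefrontal cortex, came from male wild-type mice of the inbred 129SvEv background and was taken after the animals had retrieved a remote memory. Polyadenylated RNA was sequenced from 3 libraries of a group named CFC and 4 of a group named SC, names which the labels leave unexplained, and neither ages nor pooling of animals are given. Both groups shared the strain, the sex and the genotype, and differed by the treatment label. The authors' deposited table holds 1 comparison, with a normalized count averaged over the libraries and a log2 fold change per gene, and for the latter a standard error (SE) from the authors' fit. Values of single libraries were not analysed here. The numerator of the fold change is not stated, so a difference is called positive or negative as deposited and no group is called higher. Nothing says that the libraries came from separate animals, so the p-values measure the spread between these libraries.

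Cyclic AMP is made by adenylyl cyclases under the control of G protein-coupled receptors, and cyclic GMP by guanylyl cyclases, of which the soluble form is switched on by nitric oxide. Both are read by protein kinases and, for cAMP, by exchange factors of the Epac type, and both are ended by phosphodiesterases. In cortical neurons the pathway links receptor signals and calcium to synaptic plasticity, and its kinase arm acts on the transcription factor CREB, which binds the cAMP response element in promoters.

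In the authors' deposited table none of the 43 genes was under an adjusted p-value of 0.05, beside 0.513% of all 13060 genes that have one. The lowest was 0.26, for the phosphodiesterase Pde1a. With an unadjusted p-value under 0.05 as the mark, 10 of 43 genes (23.3%) passed, beside 8.1% of all genes with an adjusted p-value and 10.6% of those whose mean count was 1000 or more. They were 7 positive and 3 negative genes, beside 4.56% and 3.54% of all genes. All 10 are described below as values that did not pass the adjustment. The log2 fold changes of the 43 genes ran from -0.27 to 0.51 in the authors' deposited table. Their median was 0.05, beside -0.0017 for all 13060 genes, and 27 of 43 were positive, beside 49.4% of all genes.

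In bulk tissue, fewer cells of a type and less RNA per cell cannot be told apart. The 95% confidence intervals, computed from the deposited standard errors, lay inside a 1.5-fold difference in either direction for 35 of the 43 genes (81.4%, beside 87.9% of all genes). They lay inside a 1.2-fold difference for 19 (44.2%, beside 47.1%). The 8 genes whose interval reached 1.5-fold were Adcy4, Pde11a, Pde1c, Pde2a, Pde3a, Pde4c, Pde7b and Pde8a, whose mean counts lay between 42.6 and 453 in the authors' deposited table. Pde8a alone had an interval that reached 2-fold.

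Levels are compared between genes as the mean normalized count divided by the kilobases of annotated exon, a mean over both groups. On this scale protein kinase A led. Prkar1b stood at 4709 counts per kilobase and Prkar1a at 3172, both regulatory subunits of type I, which hold the catalytic subunits inactive until cAMP binds. The calcium-stimulated cyclase Adcy1 followed at 2327, then the catalytic subunits Prkaca at 1741 and Prkacb at 1425. With the longest transcript as the length, 4 of these 5 genes stayed among the top 5, and Rapgef4 took the place of Prkaca. Per kilobase of exon, the type I subunits made up 92.1% of the summed regulatory subunit level. The regulatory subunits together stood at 2.70 times the catalytic ones. These and the later shares and ratios of level were computed with exon length only, and another length would change them.

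**Figure D1:**
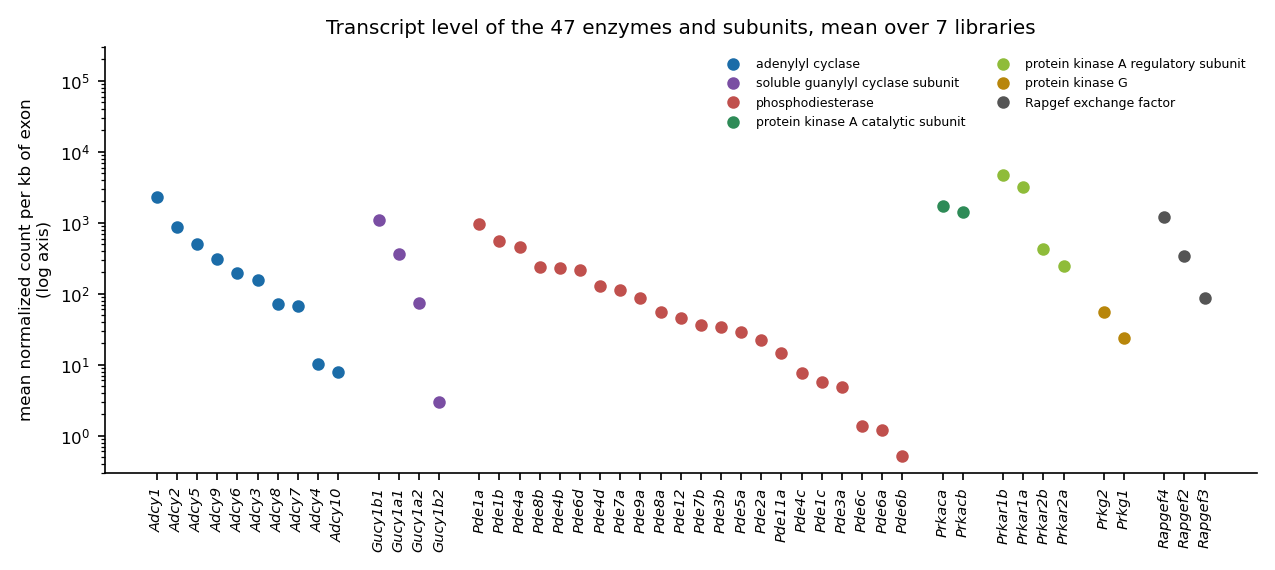
Mean normalized count per kilobase of exon (log axis) for the 47 genes, coloured by role and ordered by level within a role; each point is 1 gene's mean over 7 libraries. Prkar1b at 4709 is the highest and Pde6b at 0.519 the lowest.

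Among the adenylyl cyclases Adcy1 made up 51.5% of the summed level per kilobase, Adcy2 19.2% and Adcy5 11.2%. Adcy4 and the bicarbonate-sensitive soluble cyclase Adcy10 were lowest, at 10.3 and 7.80 counts per kilobase. Among the 22 phosphodiesterases, the calcium- and calmodulin-stimulated Pde1 family held 46.9% of the summed level and the cAMP-specific Pde4 family 25.3%. That sum leaves out Pde10a and includes Pde6d and Pde12. It also includes Pde2a at 22.1, a level that is uncertain because 64.3% of its exon bases are shared with Gm45837. Pde1a alone stood at 951 counts per kilobase, Pde1b at 559 and Pde4a at 454. With the longest transcript as the length, Pde1a stood at 1343, Pde1b at 715 and Pde4a at 746. Pde4b, Pde4d, Pde1c and Pde4c then stood at 560, 369, 13.2 and 12.4, beside 228, 129, 5.77 and 7.63 per kilobase of exon. The shares of both families therefore depend on the length used. The members of the Pde6 family that work in photoreceptors, Pde6a, Pde6b and Pde6c, stood at 1.21, 0.519 and 1.39. Pde6d, which carries the family's name but binds prenylated proteins, stood at 218.

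Soluble guanylyl cyclase works as a pair of an alpha and a beta subunit. Gucy1b1, the common beta subunit, stood at 1089 counts per kilobase, 2.47 times the summed level of the alpha subunits Gucy1a1 (366) and Gucy1a2 (73.9). With the longest transcript as the length, Gucy1b1 stood at 1327, Gucy1a1 at 542 and Gucy1a2 at 152. Gucy1a1 and Gucy1b1 are neighbours on the minus strand of chromosome 3, with 17737 bases between them in GENCODE M21 on GRCm38. Protein kinase G was low, with Prkg2 at 55.7 and Prkg1 at 23.9. Rapgef4, also known as Epac2, held 74.3% of the summed level of the exchange factors.

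The adenylyl cyclases were split in sign, 7 positive and 3 negative. Adcy8, which like Adcy1 is stimulated by calcium and calmodulin, lies on chromosome 15 (64697084 to 64922296, GRCm38). Its log2 fold change ± SE was 0.21 ± 0.098 (adjusted p = 0.581, authors' deposited table), the form in which differences are given from here on. Adcy1 itself, with a mean count of 29133, stood at 0.06 ± 0.073 in the authors' deposited table. The 95% interval of Adcy1, from -0.08 to 0.20, overlaps that of Adcy8, from 0.015 to 0.40.

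Adcy5, the cyclase that dominates in striatal neurons and is inhibited by calcium, lies on chromosome 16 (35154877 to 35305738). For it the authors' deposited table gives 0.17 ± 0.076 (adjusted p = 0.513). Its close relative Adcy6 stood at -0.0012 ± 0.075 in the authors' deposited table. Adcy2, a cyclase stimulated by G protein beta-gamma subunits, was the cyclase with the smallest p-value (chromosome 13, 68620043 to 68999541). In the authors' deposited table it was negative, at -0.15 ± 0.063 (adjusted p = 0.441). Its exons share 4.49% of their bases with Gm35161 on the opposite strand. Of the other cyclases, Adcy4 was at 0.19 ± 0.27, Adcy9 at 0.11 ± 0.081, Adcy10 at 0.09 ± 0.22, Adcy3 at 0.07 ± 0.076 and Adcy7 at -0.06 ± 0.096 in the authors' deposited table. Exons of Adcy3 share 22.1% of their bases with Cenpo on the opposite strand. Without a stated strand setting, it is not known whether reads in that shared stretch were told apart.

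**Figure D2:**
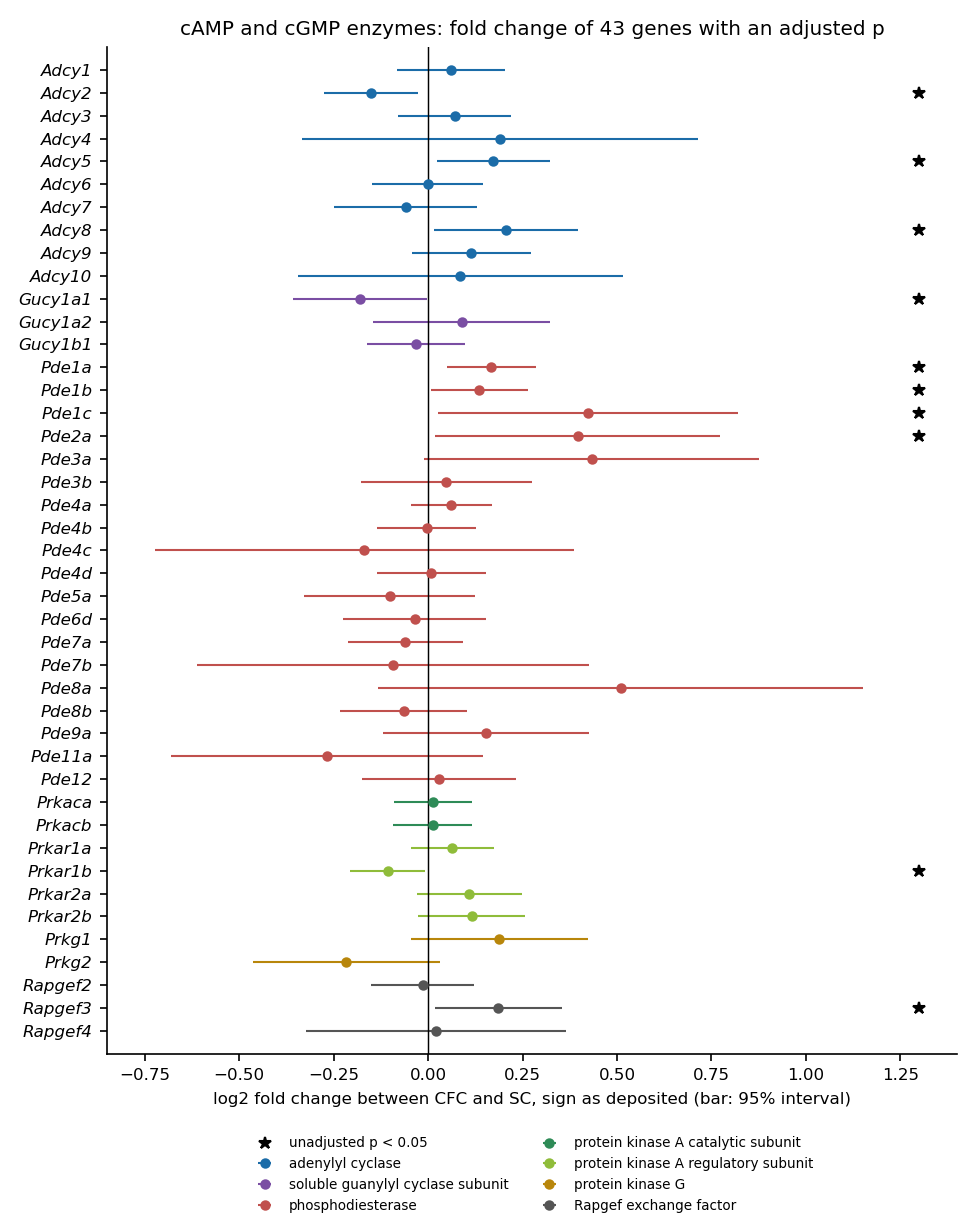
Log2 fold change between CFC and SC as deposited, with its 95% interval (bars), for the 43 genes with an adjusted p-value; colours give the role and stars mark the 10 genes with an unadjusted p-value under 0.05. Intervals of 33 genes cross 0, and the widest is that of Pde8a, from -0.13 to 1.15.

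The Pde1 family was the only phosphodiesterase family of several measured members whose log2 fold changes were all positive with an unadjusted p-value under 0.05. These enzymes cut both cAMP and cGMP when calcium and calmodulin bind them. Pde1a (chromosome 2, 79834453 to 80129458) stood at 0.17 ± 0.060 in the authors' deposited table, a difference of 1.12-fold. Its unadjusted p-value was 0.00508 and its adjusted one 0.26, by the authors' test across all genes. Pde1b (chromosome 15, 103503034 to 103530052) stood at 0.14 ± 0.065 (adjusted p = 0.594, authors' deposited table). Pde1c (chromosome 6, 56069804 to 56569103), with a mean count of 116, stood at 0.42 ± 0.20 (adjusted p = 0.594, authors' deposited table). The intervals of the 3 genes overlap, from 0.05 to 0.28 for Pde1a, from 0.0080 to 0.26 for Pde1b and from 0.025 to 0.82 for Pde1c.

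Pde2a, which cGMP stimulates, lies on chromosome 7 (101421691 to 101512827) and stood at 0.40 ± 0.19 (adjusted p = 0.602, authors' deposited table). Its mean count was 136 in the authors' deposited table, and 64.3% of its exon bases are shared with Gm45837, a gene on the same strand that is annotated as protein coding. Reads in that stretch cannot be assigned to 1 of the 2 genes, so the level and the fold change of Pde2a are uncertain. Pde3a, which cGMP inhibits, stood at 0.43 ± 0.23 (adjusted p = 0.674) and its relative Pde3b at 0.05 ± 0.12 in the authors' deposited table.

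The Pde4 family, the targets of rolipram, lay close to 0. In the authors' deposited table Pde4a was at 0.06 ± 0.055, Pde4b at -0.0037 ± 0.067 and Pde4d at 0.0089 ± 0.074. The 95% intervals of these 3 genes reached no higher than 0.17. The scarce Pde4c stood at -0.17 ± 0.28 in the authors' deposited table. Among the enzymes specific for cGMP, Pde5a stood at -0.10 ± 0.12 and Pde9a at 0.15 ± 0.14 in the authors' deposited table.

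Of the cAMP-specific Pde7 and Pde8 families, Pde8a had the largest difference in size among the 43 genes. It stood at 0.51 ± 0.33 (adjusted p = 0.832, authors' deposited table). Pde7a was at -0.06 ± 0.077, Pde7b at -0.09 ± 0.27 and Pde8b at -0.06 ± 0.086 in the authors' deposited table. Pde11a, which cuts both messengers, had the lowest value, -0.27 ± 0.21 (adjusted p = 0.922, authors' deposited table). Pde6d stood at -0.04 ± 0.096, and Pde12, which degrades short adenylate chains rather than cyclic nucleotides, at 0.03 ± 0.10 in the authors' deposited table. The scarce photoreceptor members were not resolved, with Pde6a at -0.17 ± 0.73, Pde6b at 2.43 ± 1.39 and Pde6c at 0.44 ± 0.88 in the authors' deposited table.

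The subunits of soluble guanylyl cyclase had small differences. Gucy1a1 (chromosome 3, 82092427 to 82145789) stood at -0.18 ± 0.091 (adjusted p = 0.636, authors' deposited table). Its partner and neighbour Gucy1b1 stood at -0.03 ± 0.066, and the other alpha subunit Gucy1a2 at 0.09 ± 0.12, in the authors' deposited table. The scarce beta subunit Gucy1b2 stood at 0.50 ± 0.63, without an adjusted p-value in the authors' deposited table. The kinases that read cGMP had opposite signs. Prkg1 stood at 0.19 ± 0.12 (adjusted p = 0.828) and Prkg2 at -0.22 ± 0.13 (adjusted p = 0.784) in the authors' deposited table.

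Protein kinase A, which cAMP frees from its regulatory subunits to phosphorylate its targets, had the lowest errors, with a median SE of 0.055 over its 6 subunits beside 0.098 over all genes. Its catalytic subunits Prkaca and Prkacb both stood at 0.013 ± 0.053 in the authors' deposited table. Their 95% intervals ran from -0.09 to 0.12, up to a 1.08-fold difference. The brain-enriched regulatory subunit Prkar1b (chromosome 5, 139017306 to 139150001) was the only negative subunit, at -0.11 ± 0.051 (adjusted p = 0.582, authors' deposited table). Exons of Prkar1b share 8.95% of their bases with Gm15672 on the same strand. The other regulatory subunits Prkar1a, Prkar2a and Prkar2b stood at 0.06 ± 0.056, 0.11 ± 0.071 and 0.12 ± 0.072 in the authors' deposited table.

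The exchange factors activate the small GTPase Rap, and of them Rapgef3 and Rapgef4 are the cAMP sensors of the Epac type. Rapgef3, also known as Epac1 (chromosome 15, 97744770 to 97767972), stood at 0.19 ± 0.086 (adjusted p = 0.557, authors' deposited table). Its exons share 3.72% of their bases with Rapgef3os1 and 5.54% with Rapgef3os2, both on the opposite strand. Rapgef4 and Rapgef2 were near 0, at 0.02 ± 0.18 and -0.014 ± 0.070, in the authors' deposited table.

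Promoter windows of the genes at an unadjusted p-value under 0.05 were read for the cAMP response element, because CREB, the factor that binds it, is a target of this pathway. RefSeq promoter windows on GRCm38.p6, from 250 bases before to 50 after a start site, were given for 38 of the 47 genes, in 77 windows. The full element TGACGTCA was found in 2 overlapping windows of Prkar1a and in no other member, beside 1.79% of all 32851 windows. Its core TGACG, searched on both strands and contained in the full element, was in 18 of the 77 windows (23.4%), beside 20.8% of all windows. Counted by gene, 16 of the 38 members (42.1%) held it in at least 1 window, beside 23.0% of all 27025 genes, but the members had 77 windows for 38 genes and all genes 32851 for 27025. Of the 9 genes at an unadjusted p-value under 0.05 that have a window, 4 held the core, beside 16 of all 38 members. Their windows are shown with the core in capitals (CGTCA where it lies on the opposite strand). Of the 2 Prkar1a windows with the full element, 1 is shown with that element in capitals. A match describes letters and is not evidence of binding.
Pde1a, chr2:80038853-80039152, minus strand: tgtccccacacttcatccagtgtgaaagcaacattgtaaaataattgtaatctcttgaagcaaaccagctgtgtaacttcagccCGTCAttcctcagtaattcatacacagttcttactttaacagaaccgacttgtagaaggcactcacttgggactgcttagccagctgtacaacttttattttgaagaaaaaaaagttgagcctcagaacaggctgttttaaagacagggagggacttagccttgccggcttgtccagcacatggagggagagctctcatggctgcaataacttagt
Pde2a, chr7:101450270-101450569, plus strand: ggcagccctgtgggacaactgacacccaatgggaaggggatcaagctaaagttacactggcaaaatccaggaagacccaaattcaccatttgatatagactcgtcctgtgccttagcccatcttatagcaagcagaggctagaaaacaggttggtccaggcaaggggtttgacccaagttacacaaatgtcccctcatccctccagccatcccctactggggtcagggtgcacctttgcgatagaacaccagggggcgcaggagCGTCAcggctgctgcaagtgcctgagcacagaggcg
Prkar1b, chr5:139149952-139150251, minus strand: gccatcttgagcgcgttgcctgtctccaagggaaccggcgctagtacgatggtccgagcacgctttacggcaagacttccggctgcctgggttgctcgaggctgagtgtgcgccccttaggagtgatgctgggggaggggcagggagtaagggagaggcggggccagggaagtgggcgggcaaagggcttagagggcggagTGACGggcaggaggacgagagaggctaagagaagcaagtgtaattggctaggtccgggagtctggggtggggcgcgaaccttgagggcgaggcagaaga
Rapgef3, chr15:97767617-97767916, minus strand: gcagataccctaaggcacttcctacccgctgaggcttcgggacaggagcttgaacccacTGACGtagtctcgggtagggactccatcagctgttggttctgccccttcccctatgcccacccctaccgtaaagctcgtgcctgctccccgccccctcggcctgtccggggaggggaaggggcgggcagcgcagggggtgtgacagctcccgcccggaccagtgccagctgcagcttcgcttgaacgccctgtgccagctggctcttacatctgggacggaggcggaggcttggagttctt
Prkar1a, chr11:109650699-109650998, plus strand: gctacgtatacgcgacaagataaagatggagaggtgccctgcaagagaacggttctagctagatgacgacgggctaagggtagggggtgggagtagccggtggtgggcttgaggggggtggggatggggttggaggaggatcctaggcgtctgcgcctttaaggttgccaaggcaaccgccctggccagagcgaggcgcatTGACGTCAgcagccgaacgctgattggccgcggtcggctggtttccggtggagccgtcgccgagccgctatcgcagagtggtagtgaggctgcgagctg

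The core began 166 bases before the start site of the window shown in Pde1a, 49 in Prkar1b and 191 in Rapgef3, and 14 bases after it in Pde2a. The windows of Pde1a, Pde2a and Rapgef3 lie inside the annotated span of the gene, so these start sites are not the outermost ones. Of Pde1a, Pde2a, Prkar1b and Rapgef3, Prkar1b had a negative log2 fold change and the other 3 positive ones. Prkar1a stood at 0.06 (adjusted p = 0.955, authors' deposited table). Its full element lay 49 bases before the start site of the window shown and 38 bases after that of the overlapping one.

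Precision followed abundance for 40 of the 43 genes. Each gene's standard error was set against the running median over the 500 genes of nearest mean count, and the ratio of both was above 2 for Rapgef4, Pde7b and Pde8a, beside 1.85% of all genes. Rapgef4, with a mean count of 8153 and an SE of 0.18 in the authors' deposited table, lay 3.06 times above genes of like abundance. For Pde7b the ratio was 2.69 and for Pde8a 2.52. Which libraries give these 3 genes their wide errors was not analysed here. A ratio above 2 was also found for 10 of 10 oligodendrocyte, 7 of 9 medium spiny neuron and 4 of 9 deep-layer markers, and for 1 marker each of the upper-layer (of 8), astrocyte (of 6) and interneuron (of 6) lists. No microglia, endothelial or mural, or excitatory neuron marker had one. The link of these markers to the 3 enzymes was not tested.

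**Figure D3:**
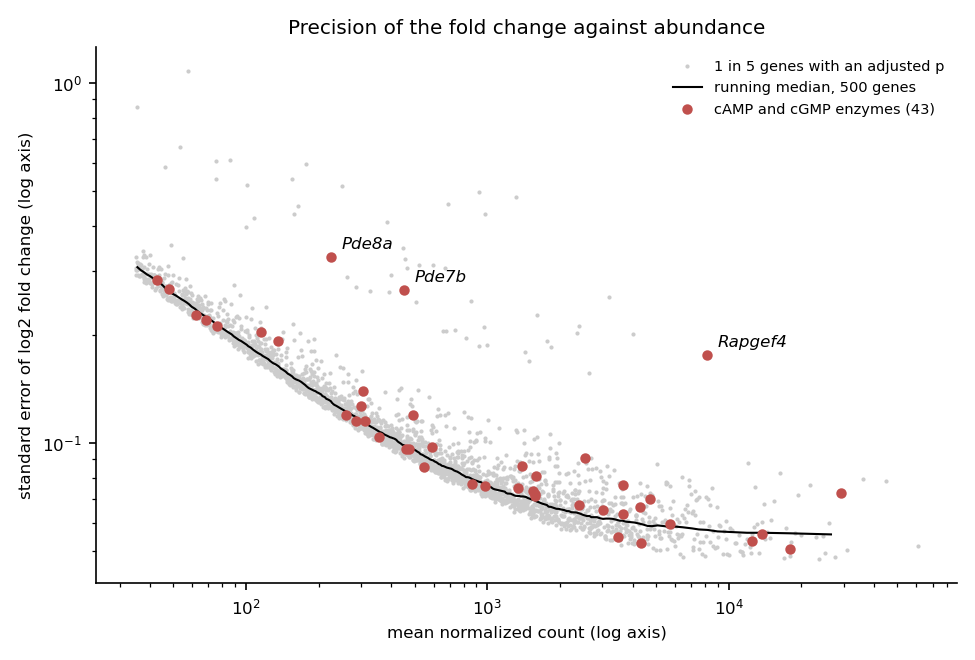
Standard error of the log2 fold change against mean normalized count (both log axes) in the authors' deposited table: grey points are 1 in 5 genes with an adjusted p-value, the line is the running median over 500 genes and red points are the 43 enzymes and subunits. Rapgef4, Pde7b and Pde8a lie 3.06, 2.69 and 2.52 times above the line.

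Genes next to the enzymes in the pathway were read from a separate list. Of 56 such genes, all were listed and 49 had an adjusted p-value, 27 of them positive (beside 49.4% of all genes) and 22 negative. Their log2 fold changes had a median of 0.02. The authors' deposited table has none of them under an adjusted p-value of 0.05, beside 0.513% of all genes. It has 8 of them under an unadjusted one (16.3%), beside 8.1% of all genes and 10.6% of those whose mean count was 1000 or more. There were 4 of each sign, beside 4.56% positive and 3.54% negative of all genes. Crtc1, a coactivator that enters the nucleus and binds CREB when cAMP and calcium rise, had the smallest p-value. It stood at -0.19 ± 0.058 (adjusted p = 0.137, authors' deposited table). Crebbp, the acetyltransferase that CREB recruits, stood at 0.15 ± 0.068, while Creb1 itself stood at 0.03 ± 0.083, in the authors' deposited table.

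Upstream of the cyclases, Gnas, the stimulatory G protein alpha subunit, stood at -0.25 ± 0.091 (adjusted p = 0.29, authors' deposited table). Its exons share bases with Nespas and Gm20721 on the opposite strand, 22% of them in all. Adcyap1, the peptide PACAP that stimulates adenylyl cyclase, stood at -0.21 ± 0.099 and its receptor Adcyap1r1 at -0.11 ± 0.065 in the authors' deposited table. Nos1, the neuronal source of the nitric oxide that activates soluble guanylyl cyclase, stood at 0.20 ± 0.097 (adjusted p = 0.606, authors' deposited table). Akap9, which anchors protein kinase A at the Golgi apparatus and centrosome, was at 0.15 ± 0.071, and the kinase inhibitor Pkig at -0.22 ± 0.11, in the authors' deposited table. Ppp1r1b, known as DARPP-32, a phosphatase inhibitor switched on by protein kinase A, stood at 0.70 ± 0.23 (adjusted p = 0.189, authors' deposited table). It is also on the list of medium spiny neuron markers, and 15.7% of its exon bases are shared with 1700003D09Rik on the opposite strand.

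Markers of the cells that the tissue could hold were read beside these results. The excitatory neuron marker Slc17a7 and the GABAergic neuron marker Gad1 had mean counts of 34713 and 4826 and stood at -0.03 ± 0.047 and -0.013 ± 0.066 in the authors' deposited table. Medium spiny neuron markers, of which 9 of 10 had an adjusted p-value, were positive in 9 of 9, their median being 0.76, with 1 gene, Drd1, past the adjusted threshold of 0.05 in the authors' deposited table. The mean counts of these 9 markers summed to 3357. Oligodendrocyte markers were positive in 10 of 10 with a median of 1.17 and none under the threshold, deep-layer markers in 9 of 9 with a median of 0.57 and 5 under it, and upper-layer markers in 0 of 8 with a median of -0.24 and 2 under it. Astrocyte, microglia and endothelial or mural markers had medians of -0.07, -0.13 and -0.15, and none of their genes was under the threshold. Excitatory neuron markers were positive in 3 of 5, with Camk2a negative and under the threshold, and interneuron markers in 3 of 6, with none under it. Summed marker levels in each group were not analysed here, and the part of these cell types in the values of Adcy5, Pde1b, Pde8a and the other enzymes was not tested.

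**Figure D4:**
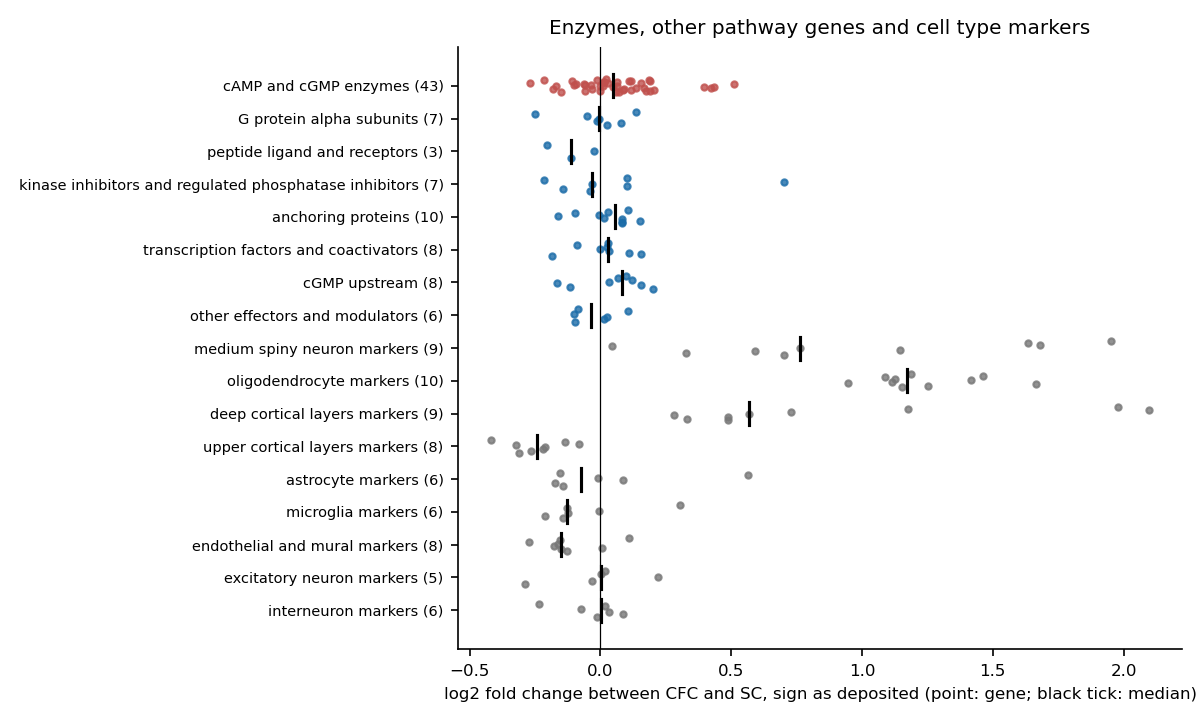
Log2 fold change between CFC and SC as deposited (points, genes with an adjusted p-value) and the median of each list (black ticks); red is the 43 enzymes and subunits, blue the other pathway genes by role, grey the cell type markers. The enzymes centre at 0.05, the oligodendrocyte markers at 1.17 and the upper-layer markers at -0.24.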

How the data were processed

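Polyadenylated RNA was measured in 7 libraries, 3 CFC and 4 SC. Per the submitters' processing notes, Trimmomatic, Subread, DESeq2 and the build mm10 were used, without versions, and the strand setting is not given in the sources used here. Per the file headers, the authors deposited a mean normalized count (a signal averaged over the libraries), a log2 fold change with its standard error, the Wald statistic (a test score), and an unadjusted and an adjusted p-value. Depth per library is unknown.

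The planned count test per library could not be fitted to a table of results, so the authors' adjusted p-values at 0.05, the planned fallback, are the test. Intervals of 95%, levels per kilobase of exon (GENCODE M21, GRCm38, which held all 47 genes), standard error ratios and a Benjamini-Hochberg adjustment checked on simulated data were computed with Python 3.11.15, pandas 2.3.3 and scipy 1.17.1. Every member was named once. Members with an unadjusted p-value under 0.05, the 5 with the largest absolute log2 fold change and the 5 with the highest level got further statistics, and so did other pathway genes under 0.05. The members and lists were chosen with earlier results of these data known. The alternatives were other thresholds, filters on the mean count, another set of genes in the adjustment, a null of a 1.2-fold change and another transcript length.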

Additional observations from a re-analysis of the deposited data

How the results depend on the processing

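No paired analysis was possible because values per library were not part of the table. For the same reason other normalizations, other count tests and leaving out a library were not run, and whether 1 library decides a value was not tested. The count of 0 enzyme genes under the threshold stayed 0 under all 6 alternatives. Thresholds of 0.1 and 0.2 could give no other count, because the lowest adjusted p-value of the authors' test was 0.26. A null of a 1.2-fold change can only raise the unadjusted p-values. All 167 adjusted p-values recomputed for single members stayed above 0.05. The lowest was 0.227, for Pde1a, when only genes of mean count 100 or more were adjusted. An unadjusted p-value under 0.01 left 1 gene of the 10, Pde1a. Among the other pathway genes, a threshold of 0.2 gave 2 in place of 0. Over all genes, 67 were under the threshold, 101 at 0.1, 213 at 0.2 and 2 against a null of at most a 1.2-fold change, all by the construction of those settings. The precision at low mean counts limits Pde1c, Pde2a, Pde3a, Pde4c, Pde11a and Adcy4, whose intervals reach a 1.5-fold difference.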
